A study of Mus musculus with 6 samples.

Results

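The genes described here are 10 members of the bone morphogenetic protein (BMP) pathway, chosen by name: the ligands Bmp2, Bmp4 and Bmp7, the secreted antagonists Grem1, Nog and Chrdl1, and the transcriptional regulators Id1, Id2, Id3 and Id4. They were taken from a table of 55385 mouse genes, and all 10 were among the 18504 genes that passed the count filter and were tested. RNA was sequenced from PDVC57, a mouse cell line of squamous cell carcinoma that derives from keratinocytes. There were 3 libraries with the genotype Sox2 KO (knockout) and 3 with Sox2 overexpression. Sox2 is a transcription factor of stem cells. According to the design text, Sox2-low and Sox2-high carcinoma cells were taken from tumours grown from grafts, and the question was how Sox2 in tumour stem cells acts on neutrophils. No unmodified PDVC57 library was analysed here, so each difference is between the 2 altered genotypes and cannot be assigned to either. The labels do not say whether the 3 libraries of a group came from separate clones, grafts or animals, so p-values measure the spread between these libraries, which may be technical.

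BMP ligands are secreted dimers that bind type I and type II receptor kinases on the cell surface. The receptors phosphorylate the transcription factors SMAD1, SMAD5 and SMAD9, which enter the nucleus with SMAD4 and switch on targets that include Id genes. Antagonists such as gremlin and noggin hold the ligands outside the cell. Id proteins carry a helix-loop-helix domain without a DNA-binding region, and they keep E proteins and other partners off DNA. In skin, BMP signalling is known for its part in keratinocyte differentiation and in the quiescence of hair follicle stem cells.

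Library totals lay between 31247976 and 38543221 counts over mouse genes. Levels are given as CPM, counts scaled to a common library total after TMM normalization, and 3 counts, the upper limit that a count of 0 allows, were worth 0.0759 to 0.101 CPM. Sox2 stood at 1.44, 1.12 and 0.685 CPM in knockout replicates 1, 2 and 3 and at 78.3, 128 and 104 CPM in overexpression replicates 1, 2 and 3. Keratinocyte genes were present in both groups: the 12 epithelial markers summed to between 5961 and 9154 CPM with knockout and between 13329 and 18129 CPM with overexpression. The 10 fibroblast markers summed to between 54478 and 84008 CPM with knockout and between 258 and 405 CPM with overexpression, and none of them was at 0 in any library. The 8 endothelial markers gave 37.9 to 124 against 12.2 to 19.2 CPM, the 6 mural cell markers 289 to 398 against 61.6 to 76.6 CPM, and the 9 white blood cell markers 26.5 to 134 against 13.9 to 28.6 CPM. These 3 overexpression sums rested on a few members. Of the endothelial list, 6 of 7 tested genes fell, and Cdh5, Emcn, Plvap and Cldn5 had at most 3 counts in every overexpression library, but Tek overlapped between the groups (9.67, 24.7 and 34.4 against 16.9, 9.34 and 15.1 CPM) and Pecam1 kept 68 to 144 counts. Of the mural list, 5 fell and Notch3 rose, to 59.1, 73.7 and 63.9 CPM. Of the white blood cell list, 4 of 6 tested genes fell and Cd3e, Cd79a and Adgre1 had at most 3 counts in every overexpression library. Csf1r (5.72, 5.42 and 8.11 against 16.1, 12.8 and 6.02 CPM) and Cd68 (3.08, 6.71 and 8.61 against 11.2, 7.78 and 6.85 CPM) overlapped between the groups. In these bulk samples, fewer cells of a type and less RNA per cell cannot be told apart.

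**Figure D1:**
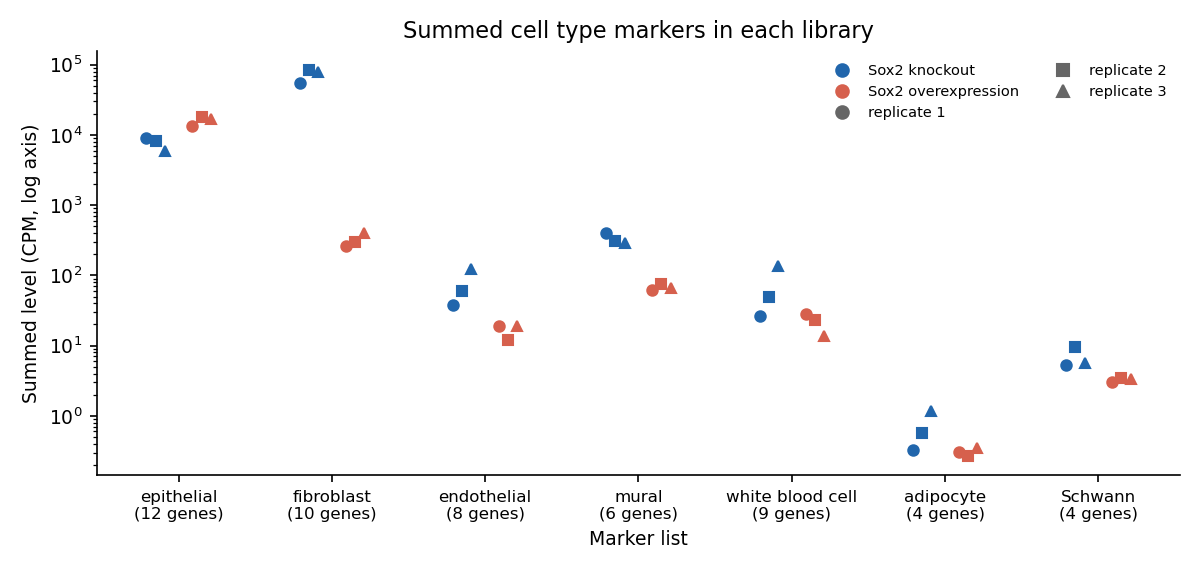
Summed level of each list of cell type markers in each library, in CPM on a log axis, with 1 point per library. The fibroblast list lies above 54478 CPM in each knockout library and at or under 405 CPM in each overexpression library, while the epithelial list lies between 5961 and 18129 CPM in all 6.

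Of the 10 genes, 1 (Id4) rose and 6 (Bmp2, Bmp7, Grem1, Nog, Chrdl1 and Id3) fell with Sox2 overexpression, and 3 (Bmp4, Id1 and Id2) did not pass the threshold of an adjusted p of 0.05 in the edgeR quasi-likelihood test. Over all 18504 tested genes, 31.6% were called, 13.6% higher and 18.0% lower. The 3 knockout and the 3 overexpression libraries did not overlap for 8 of the 10 genes, against 50.9% of all tested genes. The median log2 fold change of the 10 genes, overexpression over knockout, was -1.54, beside -0.02 for all tested genes. All 3 antagonists and 2 of the 3 ligands were lower, whereas the Id genes split, with 1 higher and 1 lower. Chrdl1 passed the count filter through the knockout libraries alone, so its fall was partly fixed by the filter.

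**Figure D2:**
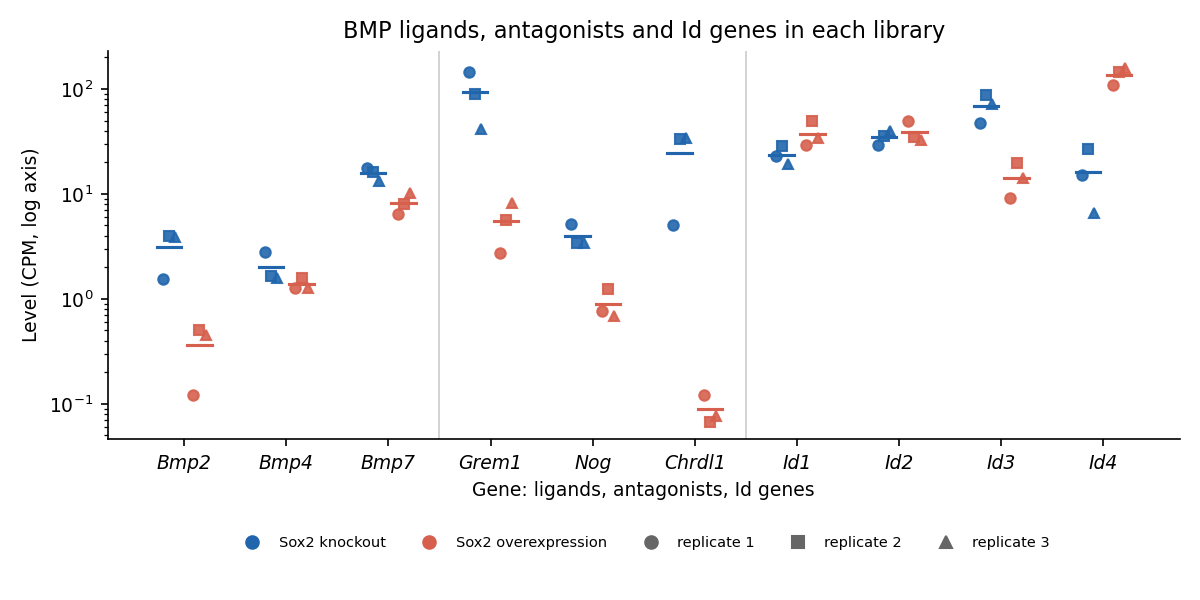
Level of the 10 genes in each library, in CPM on a log axis, with 1 point per library (shape for the replicate number, for which the labels state no pairing across groups) and a bar at the group mean. The groups overlap for Bmp4 and Id2, the knockout points lie higher for Bmp2, Bmp7, Grem1, Nog, Chrdl1 and Id3, and the overexpression points lie higher for Id1 and Id4.

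Among the 3 ligands, Bmp7 had the highest level per length of exon in every library. Bmp7, whose product is a ligand of epithelia and kidney in development, lies on chromosome 2 (172868012 to 172940321, minus strand, GRCm38) and is protein-coding, like all 10 genes. Its level was 17.7, 16.1 and 13.4 CPM in the knockout libraries and 6.38, 8.08 and 10.3 CPM in the overexpression libraries. The lowest knockout library was above the highest overexpression library. The means were 15.8 ± 2.15 and 8.25 ± 1.96 CPM (n = 3 libraries each, ± SD), a log2 fold change of -0.93 ± 0.23 (SE; edgeR, adjusted p = 0.0149). This call was lost without knockout replicate 1 (adjusted p = 0.053) or knockout replicate 2 (adjusted p = 0.0544). All its alternatives gave adjusted p-values between 0.000121 and 0.0544.

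Bmp2, a ligand with known roles in bone and hair follicle, lies on chromosome 2 (133552159 to 133562885, plus strand). It had 53, 121 and 142 counts in the knockout libraries and 4, 15 and 18 counts in the overexpression libraries, or 1.55, 4.0 and 3.89 CPM against 0.122, 0.507 and 0.455 CPM. The groups did not overlap, and replicate 1 was the lowest library of each. Bmp2 was 8.71-fold lower with overexpression, a log2 fold change of -3.11 ± 0.59 (SE; edgeR, adjusted p = 0.00402).

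Bmp4, a ligand closely related to Bmp2, lies on chromosome 14 (46383520 to 46390669, minus strand), and the exons of Gm15217 on the other strand, which had 0 counts in all 6 libraries, overlap its own. Its level was 2.81, 1.65 and 1.59 CPM with knockout and 1.28, 1.59 and 1.26 CPM with overexpression. The groups overlapped, since the highest overexpression library reached the level of the lowest knockout library. The log2 fold change was -0.55 with a 95% interval from -1.36 to 0.26 (edgeR, adjusted p = 0.272). The interval held both a fall and a rise. Under the epithelial scaling it was -1.57 and called lower (adjusted p = 0.00636), within 0.00636 to 0.692 for all alternatives.

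The BMP pathway list held 12 other ligands, of which 6 were tested. Of these, 5 fell and 1, Bmp6, rose, where 31.6% of all tested genes were called. Bmp3, Bmp5, Gdf6 and Gdf10 had under 10 counts in every overexpression library and passed the count filter through the knockout libraries alone. Such genes could be tested only because their knockout counts were high, so this count of falls was partly fixed by the filter. Bmp6, a ligand made by keratinocytes among other cells, rose from 5.42, 4.99 and 9.87 CPM to 22.4, 20.1 and 19.6 CPM. The lowest overexpression library was above the highest knockout library, and the log2 fold change was 1.61 ± 0.275 (SE; edgeR, adjusted p = 0.00236), but under a scaling of each library to its epithelial genes it was 0.50 and not past the threshold (adjusted p = 0.251). Its adjusted p lay between 3.83e-07 and 0.251 in all alternatives. Exons of Txndc5, which had up to 10542 counts in a library, overlap those of Bmp6 on the other strand, and without a stated strand setting reads of the 2 genes cannot be told apart there. Bmp3, an atypical family member known to act against other BMPs, had 311, 257 and 327 counts with knockout and 6, 3 and 1 with overexpression, a log2 fold change of -6.42 (edgeR, adjusted p = 2.46e-05) that was -7.12 without overexpression replicate 1. Gdf10 had 133, 193 and 686 counts against 0, 6 and 5, with a log2 fold change of -6.44 (edgeR, adjusted p = 0.000761) that was -5.51 without knockout replicate 3, -7.07 without overexpression replicate 2 and -5.86 without overexpression replicate 1. Bmp5 had 62, 35 and 83 counts against 0, 2 and 0. It was at least 17.2-fold lower relative to 3 counts in overexpression replicate 2 (0.101 CPM), the highest floor of that group.

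The ligands together showed a change of composition. Per kilobase of exon, Bmp2, Bmp4 and Bmp7 summed to between 5.14 and 6.09 CPM per kb with knockout and between 2.19 and 3.25 CPM per kb with overexpression. Over all 15 listed ligands, a set summed after the values were seen, the sums were 10.7, 10.6 and 13.5 CPM per kb with knockout and 8.13, 8.25 and 8.64 CPM per kb with overexpression. The groups did not overlap, and the overexpression libraries were lower. Bmp7 held 41.0%, 37.7% and 24.8% of that sum in knockout replicates 1, 2 and 3 and 19.5% to 29.6% in the overexpression libraries. Bmp6 held 12% to 18.8% and 58.2% to 70.6%. Gdf10 held 6.97%, 11.5% and 26.8% in knockout replicates 1, 2 and 3 and at most 0.472% in the overexpression libraries, and Bmp3 held 9.0% to 11.5% and at most 0.304%. The ligand with the largest share was Bmp7 in knockout replicates 1 and 2, Gdf10 in knockout replicate 3, and Bmp6 in each overexpression library.

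All 3 antagonists fell. Grem1 encodes gremlin, an antagonist of the DAN family that binds BMP2, BMP4 and BMP7 and is made by fibroblasts of several tissues. The gene lies on chromosome 2 (113746164 to 113758646, minus strand). Its level was 146, 90.2 and 41.5 CPM in knockout replicates 1, 2 and 3 and 2.72, 5.62 and 8.25 CPM in overexpression replicates 1, 2 and 3. The groups were far apart, although the knockout libraries differed among themselves, with replicate 1 highest. Knockout replicate 1 also had the lowest fibroblast sum (54478 CPM) and the highest mural cell sum (398 CPM) of its group. The mean fell from 92.6 ± 52.3 to 5.53 ± 2.77 CPM (SD, n = 3 each), 16.8-fold, with a log2 fold change of -4.06 ± 0.535 (SE; edgeR, adjusted p = 0.000571).

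Chrdl1 encodes chordin-like 1, which binds BMP4 and other ligands. It lies on the X chromosome (143285674 to 143394262, minus strand). It had 172, 1019 and 1256 counts in the knockout libraries, or 5.04, 33.7 and 34.4 CPM, and 4, 2 and 3 counts in the overexpression libraries, at or near the limit of detection. Knockout replicate 1, the highest library for Grem1, was the lowest for Chrdl1. The log2 fold change was -8.05 ± 0.89 (SE; edgeR, adjusted p = 0.000204). Summed over libraries, 2447 counts against 9 gave a ratio of 275, with an exact 95% interval from 144 to 601 that covers counting error only.

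Nog encodes noggin, which blocks the receptor-binding sites of BMP ligands. The gene has a single exon on chromosome 11 (89300638 to 89302332, minus strand). Its level was 5.13, 3.44 and 3.40 CPM with knockout and 0.763, 1.25 and 0.683 CPM with overexpression, with no overlap between the groups. Noggin transcripts were 4.44-fold lower, a log2 fold change of -2.15 ± 0.37 (SE; edgeR, adjusted p = 0.00242). The direction and the call of the 3 antagonists held in each of the 13 alternative fits.

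Per length of exon, Grem1, Nog and Chrdl1 together were above Bmp2, Bmp4 and Bmp7 in every knockout library. They were below these ligands in every overexpression library. The summed CPM per kb of Grem1, Nog and Chrdl1 was 6.40, 4.89 and 3.33 times that of Bmp2, Bmp4 and Bmp7 in the knockout libraries, and 0.512, 0.735 and 0.739 times in the overexpression libraries. Grem1 supplied 58.5% to 90.3% of the antagonist sum with knockout and 58.3% to 82.8% with overexpression, so it led in every library. Noggin's share was 7.06% to 11.7% with knockout and 16.8% to 40.1% with overexpression. These ratios cover the named genes only and not all BMP antagonists. On the longer list described next, Nbl1, which did not pass the threshold, averaged 180 CPM per kb with knockout and 135 with overexpression. Fst averaged 22.6 and 86.7 CPM per kb. In each group, both averages were above the sum of all 15 listed ligands in every library. That sum was 10.6 to 13.5 CPM per kb with knockout and 8.13 to 8.64 CPM per kb with overexpression.

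A further 17 antagonists and modulators were listed and 13 of them tested. Of these, 8 fell, 1 rose and 4 did not pass the threshold, where 31.6% of all tested genes were called. Kcp, with 0, 3 and 11 counts in the overexpression libraries, passed the count filter through the knockout libraries alone. The count of falls was thus partly fixed by the filter. Kcp, which encodes a chordin-like protein that modulates BMP and TGF-beta ligands, fell by 7.29 on the log2 scale (edgeR, adjusted p = 4.93e-05), a value of -8.68 without overexpression replicate 3. Fstl3, a secreted inhibitor of activins, had a log2 fold change of -4.47 (edgeR, adjusted p = 1.69e-05). Fst encodes follistatin, which binds activins and, less tightly, some BMPs, and it was the gene that rose. It stood at 115, 116 and 78.6 CPM with knockout and 370, 375 and 448 CPM with overexpression, a log2 fold change of 1.94 ± 0.20 (SE; edgeR, adjusted p = 0.000131), and it remained higher past the threshold in each of the 13 alternative fits.

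The fall of the 3 antagonists was measured in libraries whose 10 fibroblast markers all fell, at a median of -8.16 on the log2 scale, and the part of those cells or transcripts in the result was not tested. A scaling of each library to its epithelial genes put the median of all tested genes at -1.06 in place of -0.02 (log2). The antagonists then stood at -5.04 (Grem1), -3.19 (Nog) and -9.16 (Chrdl1). That scaling changes only the library factors, so these genes moved down along with the median. It cannot separate fibroblast transcripts from others. The shares of calls that were higher or lower also moved, from 43.1% higher to 2.96% higher.

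**Figure D3:**
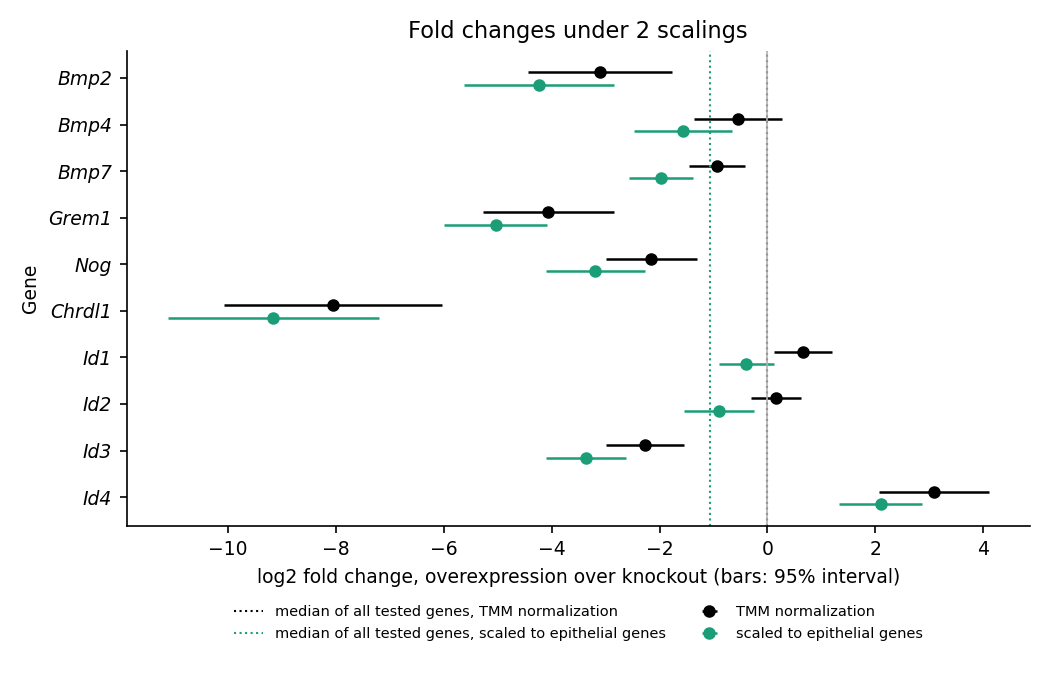
Log2 fold change of each of the 10 genes, overexpression over knockout, with its 95% interval, after TMM normalization (black) and after scaling each library to its epithelial genes (green), with the median of all tested genes under each scaling as a dotted line. Id4 lies to the right of 0 under both, Id1 and Id2 move from right to left of 0, and the other 7 lie to the left under both.

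The Id genes are shown with the bases upstream of their annotated starts, since they share a role as BMP-SMAD targets and moved in different directions. RefSeq promoters (GRCm38.p6) were at hand for 5 of the 10 genes, among them Id2, Id3, Id4 and Grem1. The 250 bases before each RefSeq start, which can differ from the gene bounds given here from GENCODE, are printed 5′ to 3′ on the gene's strand, with matches to the motifs GGCGCC (a GC-rich core known from BMP-SMAD sites), GTCT (the SMAD box) and ACAAT (a SOX core) on either strand in capitals. No matches overlapped each other. The windows of Id2 and Id3 lie inside the GENCODE bounds of their genes, and those of Id4 and Grem1 lie outside.
Id3 (chr4:136143572-136143821, plus strand): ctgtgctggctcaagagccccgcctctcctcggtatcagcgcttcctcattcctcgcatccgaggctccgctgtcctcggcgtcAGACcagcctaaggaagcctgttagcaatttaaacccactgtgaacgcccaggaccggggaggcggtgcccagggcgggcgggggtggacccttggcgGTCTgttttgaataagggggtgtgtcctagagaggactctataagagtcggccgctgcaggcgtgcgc
Id2 (chr12:25096093-25096342, minus strand): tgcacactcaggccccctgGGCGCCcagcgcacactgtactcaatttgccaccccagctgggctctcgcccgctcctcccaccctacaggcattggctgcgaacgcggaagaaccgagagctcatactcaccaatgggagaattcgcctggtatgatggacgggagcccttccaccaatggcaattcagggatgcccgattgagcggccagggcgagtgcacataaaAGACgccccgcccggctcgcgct
Id4 (chr13:48260866-48261115, plus strand): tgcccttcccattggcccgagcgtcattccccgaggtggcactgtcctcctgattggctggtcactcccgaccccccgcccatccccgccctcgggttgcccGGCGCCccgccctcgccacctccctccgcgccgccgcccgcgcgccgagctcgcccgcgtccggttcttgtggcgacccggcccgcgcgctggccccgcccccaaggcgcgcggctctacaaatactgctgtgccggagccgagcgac
Grem1 (chr2:113758649-113758898, minus strand): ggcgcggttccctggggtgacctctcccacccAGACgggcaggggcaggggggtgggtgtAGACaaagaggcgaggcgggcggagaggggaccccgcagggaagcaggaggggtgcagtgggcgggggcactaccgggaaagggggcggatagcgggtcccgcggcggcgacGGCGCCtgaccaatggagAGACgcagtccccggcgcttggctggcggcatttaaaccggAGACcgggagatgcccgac
The upstream bases of Id3 held GTCT 2 times and no GGCGCC, those of Id2 held 1 of each, those of Id4 held GGCGCC 1 time and no GTCT, and those of Grem1 held GGCGCC 1 time and GTCT 4 times. ACAAT was in none of these 4 windows. Only this exact string was searched as a SOX core, so its absence does not show that the windows lack other forms of a SOX site. Over all 32851 promoters of the table, 9.59% of windows of this length held GGCGCC, 82.9% held GTCT and 27.7% held ACAAT. The share of G and C was 75.6% in the window of Id4, 72% in that of Grem1 and 62.8% in those of Id2 and Id3. These matches describe letters in a short window and do not show binding.

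Id4 lies on chromosome 13 (48261228 to 48266026, plus strand) and its product is an atypical Id protein that also binds the other Id proteins. Its level was 15.3, 26.8 and 6.55 CPM in the knockout libraries and 108, 146 and 157 CPM in the overexpression libraries. Every overexpression library was above every knockout library, and the knockout libraries spread widely, with replicate 2 highest and replicate 3 lowest. The mean was 8.46-fold higher with overexpression, a log2 fold change of 3.08 ± 0.45 (SE; edgeR, adjusted p = 0.000977). Id4 was higher past the threshold in each of the 13 alternative fits, with adjusted p-values from 3.46e-13 to 0.00885, and its log2 fold change was 2.10 under the epithelial scaling. The antisense genes A330033J07Rik and Gm49291, whose exons overlap those of Id4, had at most 52 counts in a library, against at least 239 for Id4.

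Id3, a target of BMP signalling in many cell types, lies on chromosome 4 (136143497 to 136145755, plus strand). Its level was 46.9, 86.9 and 72.2 CPM with knockout and 9.06, 19.5 and 14.3 CPM with overexpression, so that the groups were clearly separate. The mean was 4.80-fold lower, a log2 fold change of -2.26 ± 0.32 (SE; edgeR, adjusted p = 0.000806).

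Id1, the most widely used readout of BMP signalling, lies on chromosome 2 (152736251 to 152737410, plus strand). It stood at 23.0, 28.6 and 19.4 CPM with knockout and 29.1, 49.2 and 33.9 CPM with overexpression. The overexpression libraries were all higher, though the nearest pair of libraries differed by less than 1 CPM. The log2 fold change was 0.66 with a 95% interval from 0.13 to 1.19, and it did not pass the threshold after adjustment over all genes (edgeR, adjusted p = 0.061). It passed without overexpression replicate 1 (adjusted p = 0.0316) and in DESeq2 (adjusted p = 0.0356). Its adjusted p lay between 0.0166 and 0.173 in the alternatives, and its direction flipped to -0.39 under the epithelial scaling.

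Id2, which is known to restrain differentiation in several lineages, lies on chromosome 12 (25093799 to 25097140, minus strand). Its level was 29.5, 35.9 and 39.5 CPM with knockout and 49.7, 34.6 and 32.3 CPM with overexpression. The groups overlapped, and the log2 fold change of 0.15 had a 95% interval from -0.31 to 0.62 (edgeR, adjusted p = 0.597). Its sign depended on overexpression replicate 1, without which it was -0.041. Under the epithelial scaling it was -0.90 and called lower (adjusted p = 0.0192), and the adjusted p lay between 0.0192 and 0.892 in the alternatives.

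Taking the 4 Id genes per length of exon shows how their balance differed. Their summed level was 62.1, 94.8 and 74.9 CPM per kb in the knockout libraries and 78.5, 106 and 91.3 CPM per kb in the overexpression libraries, so the totals overlapped. Id3 made up 42.2% to 53.8% of the sum with knockout and 6.44% to 10.3% with overexpression. Id4 made up 2.27% to 7.33% with knockout and 35.6% to 44.8% with overexpression. Id1 held 22.3% to 31.9% and 32% to 40.2%, and Id2 15.5% to 21.6% and 13.5% to 26.0%. The ratio of Id4 to Id3 per length was 0.152, 0.143 and 0.0422 in the knockout libraries and 5.52, 3.49 and 5.11 in the overexpression libraries. This ratio is taken within a library, so the scaling between libraries does not enter it. The mix of cells in a library can still enter it, as it can the Id and ligand shares and the levels of Id3, Bmp2 and Bmp7. Its part was not tested.

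**Figure D4:**
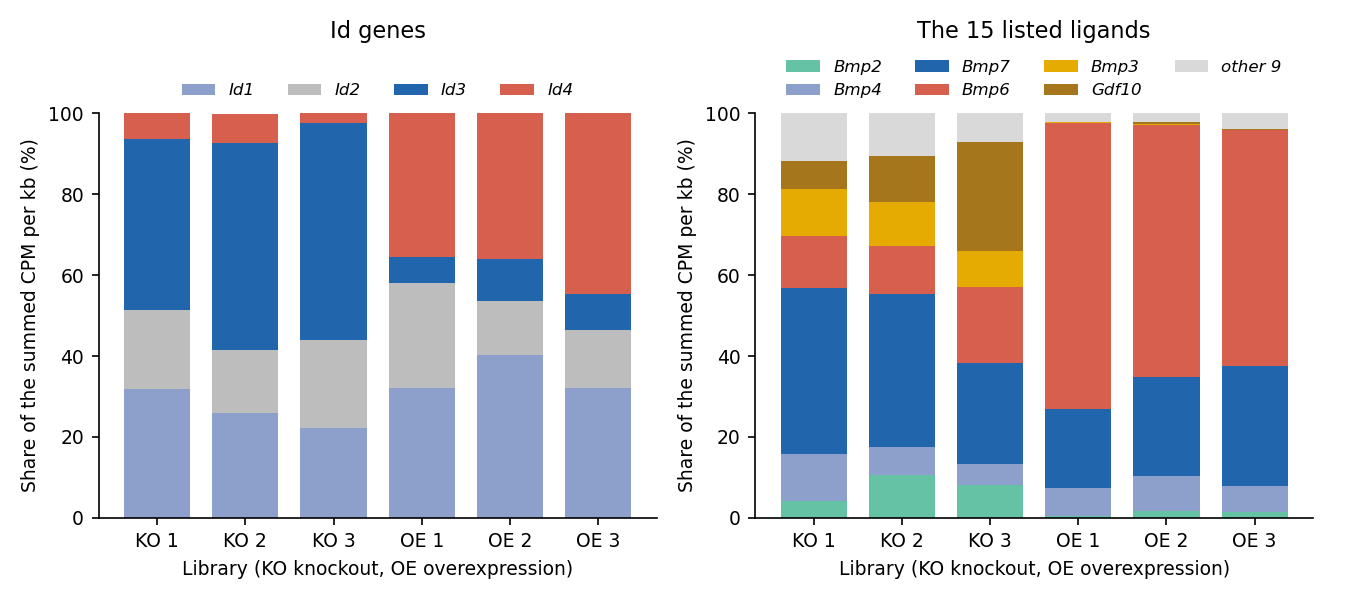
Share of the summed CPM per kilobase of exon that each gene held in each library (KO knockout, OE overexpression), for the 4 Id genes on the left and for the 15 listed ligands on the right, with 9 of them drawn together. Id3 holds at least 42.2% of the Id sum in each knockout library and at most 10.3% in each overexpression library, where Id4 holds at least 35.6%; Bmp6 holds at least 58.2% of the ligand sum in each overexpression library.

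Ordered by level per length, the knockout libraries had Id3 first with a mean of 38.3 CPM per kb, then Grem1 (22.3), Id1 (20.4), Id2 (14.3), Id4 (4.21), Bmp7 (3.92), Chrdl1 (3.61), Nog (2.35), Bmp4 (0.898) and Bmp2 (0.886). Of the neighbours in this order, Id1 and Id2, Id2 and Id4, and Nog and Bmp4 did not overlap between libraries, and all other neighbours did. In the overexpression libraries the order was Id4 (35.6), Id1 (32.2), Id2 (15.9), Id3 (7.98), Bmp7 (2.05), Grem1 (1.33), Bmp4 (0.613), Nog (0.530), Bmp2 (0.102) and Chrdl1 (0.0131). Here Id4 with Id1, Bmp7 with Grem1, Grem1 with Bmp4 and Bmp4 with Nog overlapped. Grem1 thus fell from the second place to the sixth, and Id4 stood in the fifth place with knockout and in the first with overexpression.

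Of 3 E protein genes, the partners that Id proteins hold, Tcf4 fell and Tcf3 and Tcf12 did not pass the threshold. That share of calls lies near the 31.6% over all tested genes. Tcf4 stood at 125, 122 and 121 CPM with knockout and 41.7, 36.2 and 53.4 CPM with overexpression, a log2 fold change of -1.49 ± 0.17 (SE; edgeR, adjusted p = 0.00026). Tcf3 had 177, 155 and 150 CPM against 147, 237 and 177 CPM, and the groups overlapped.

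Of 12 receptor and co-receptor genes, 11 were tested, 4 fell and 7 did not pass the threshold. The share called was near the 31.6% of all tested genes. The type I receptor Bmpr1a had 70.7, 69.9 and 64.0 CPM with knockout and 99.2, 53.5 and 97.3 CPM with overexpression, and its log2 fold change of 0.29 had a 95% interval from -0.24 to 0.81 (edgeR, adjusted p = 0.371). The type II receptor Bmpr2 had a log2 fold change of 0.10 with an interval from -0.34 to 0.54 (edgeR, adjusted p = 0.718). Both were chosen for description after their values were seen. Acvrl1, a type I receptor mainly of endothelium, fell from 17.9, 35.6 and 38.1 CPM to 0.458, 0.609 and 0.531 CPM, a log2 fold change of -5.84 (edgeR, adjusted p = 7.07e-06). Eng, the endothelial co-receptor endoglin, fell from 30.1, 43.7 and 43.9 CPM to 1.22, 2.54 and 1.59 CPM, with a log2 fold change of -4.47 (edgeR, adjusted p = 1.28e-05), and exons of Fpgs on the other strand, with up to 962 counts, overlap it. Acvr1, a broadly expressed type I receptor, fell by 0.86 on the log2 scale (edgeR, adjusted p = 0.0078). Of the 7 tested endothelial markers, 6 also fell, from Pecam1 (5.34-fold lower) to Plvap (232, 268 and 734 counts against 0, 2 and 1). Tek did not pass the threshold (edgeR, adjusted p = 0.216). Over knockout replicates 1, 2 and 3, the 8 endothelial markers summed to 37.9, 60.1 and 124 CPM. The 10 fibroblast markers summed to 54478, 84008 and 79143 CPM there. The part of endothelial and fibroblast transcripts in these falls was not tested.

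Among 9 tested SMAD genes and regulators, 2 rose, 1 fell and 6 did not pass the threshold. This too was near the 31.6% called over all tested genes. Smad6, an inhibitory SMAD that is itself a BMP target, had 7.74, 7.80 and 8.17 CPM with knockout and 15, 20.7 and 17.1 CPM with overexpression, a log2 fold change of 1.15 ± 0.19 (SE; edgeR, adjusted p = 0.00192). Smad7, the inhibitory SMAD shared with TGF-beta signalling, had 76.7, 90.9 and 76.4 CPM against 107, 165 and 127 CPM, a log2 fold change of 0.71 (edgeR, adjusted p = 0.0199). Both groups of libraries were separate for these 2 genes. The call of Smad7 was lost without knockout replicate 1 (adjusted p = 0.0659) or 3 (adjusted p = 0.0675), and its adjusted p lay between 0.00361 and 0.156 in the alternatives. Under the epithelial scaling Smad6 was at 0.08 and Smad7 at -0.35. Smad1, a mediator of the signal, had a log2 fold change of -0.57 (edgeR, adjusted p = 0.0286), which was not past the threshold without knockout replicate 1 (0.0609) or 2 (0.134) or without overexpression replicate 1 (0.0836) or 3 (0.0592), over a range from 0.00014 to 0.134.

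Of 10 other target genes, 9 were tested, 4 fell and 5 did not pass the threshold, where 31.6% of all tested genes were called. Msx1 and Atoh8 passed the count filter through the knockout libraries alone, so the count of falls was partly fixed by the filter. Tmem100, a target of endothelial BMP signalling, had 539, 1220 and 1087 counts with knockout and 6, 1 and 17 with overexpression, a log2 fold change of -6.94 (edgeR, adjusted p = 5.35e-05) that was -7.94 without overexpression replicate 3. Msx1, a homeobox gene induced by BMPs in mesenchyme, had 69, 78 and 175 counts against 0, 3 and 7, a log2 fold change of -4.98 (edgeR, adjusted p = 0.00123) that was -5.88 without overexpression replicate 3. Atoh8 had 17, 32 and 73 counts with knockout and 0 in each overexpression library, which is at least 11.7-fold lower relative to 3 counts, and its knockout mean went from 1.19 to 0.778 CPM when replicate 3 was left out. Runx2, a regulator of bone, and Gata3, a regulator of epidermis, overlapped between the groups with log2 fold changes of -0.01 and -0.095, and both were chosen after their values were seen. Over the whole list of 64 further pathway genes, 51 were tested, 4 rose, 23 fell and 24 did not pass, with a median log2 fold change of -0.50. The same limit of the filter holds for these counts.

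**Figure D5:**
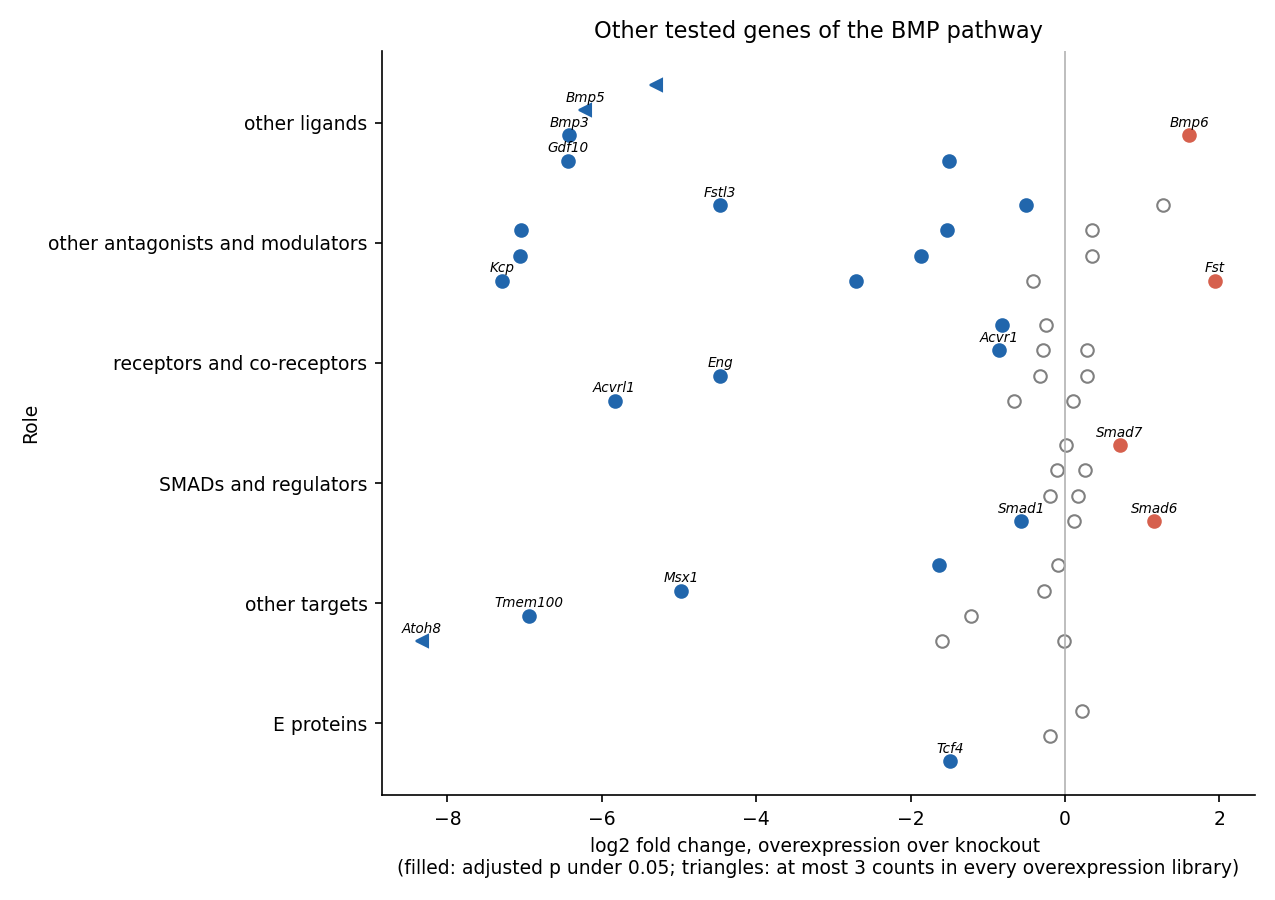
Log2 fold change of the 51 other tested BMP pathway genes, overexpression over knockout, by role, with 1 symbol per gene (filled red higher, filled blue lower, open not past the threshold, triangles for genes with at most 3 counts in every overexpression library, whose fitted value does not measure the size of the fall). Bmp6, Fst, Smad6 and Smad7 are the filled symbols to the right of 0.

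The profiles most like those of Bmp4, Grem1 and Id1 were sought among 11156 tested genes, by the Euclidean distance between log2 CPM values over the 6 libraries after each gene's mean was taken off. For Grem1 they were Enpp2 (distance 0.67), Megf6 (0.97) and Tgfbi (0.97), with log2 fold changes of -4.14, -4.12 and -3.39. For Megf6 the value was -5.05 without overexpression replicate 3. For Id1 they were Fbxl6, Nsmce1 and Hoxd9, each at a distance of 0.10, with log2 fold changes of 0.65, 0.69 and 0.72 that did not pass the threshold (edgeR, adjusted p = 0.0679, 0.0599 and 0.0586). For Bmp4 they were Lbh (0.28), Rasgef1b (0.28) and Mamdc4 (0.29), and none of these 3 passed the threshold (edgeR, adjusted p = 0.0516, 0.163 and 0.27). With 2 groups of 3 libraries, such likeness rests mainly on the difference between the groups.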

How the data were processed

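Bulk RNA-seq of 6 libraries was used as whole-number counts per gene, the unit the authors deposited. The submitters' processing notes name kallisto 0.44.0 and the build mm10 without their role. The annotation, the summing to genes, rounding and strand setting are not given in the sources used here. Of 55481 rows, 96 were no mouse gene (spike-ins and constructs, at most 2.23e-05% of counts) and were left out. Groups came from the genotype labels. A filter on low counts was applied first (filterByExpr, minimum count 10 and minimum total 15). The minimum count did not have to be reached in every library, so a gene could pass through the knockout libraries alone. Counts were then normalized by TMM and tested with edgeR 4.0.16 (quasi-likelihood, R 4.3.3), without covariates. The p-values were adjusted by the Benjamini-Hochberg method over 18504 genes, with a threshold of 0.05. Intervals are at 95%. Levels per kilobase used the exon union of GENCODE M21 (GRCm38). The counting floor was 3 counts, and floors and counting intervals cover counting error only.

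The 10 genes, the pathway and marker lists and the tests were chosen with earlier results of these data known. Besides the 10 genes and Sox2, the text names up to 3 genes with the smallest p among those called in each direction of each role list, and the 3 nearest profiles of Bmp4, Grem1 and Id1 (average log2 CPM of at least 2). A gene that this rule names is not reported here. Other genes were picked with their values known. The alternatives were RLE and upper-quartile scaling, scaling to 12 epithelial genes, no count filter, robust dispersion, a replicate block, DESeq2 1.42.0 and leaving out each library. On simulated counts for this comparison over 18504 genes, the edgeR test recovered 29 of 100 genes changed 2-fold and 69 of 100 changed 4-fold. There were 14 false calls among 112, a share above 0.05. Far fewer genes were changed there than the 31.6% called in the data, so these rates need not hold for the data.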

Additional observations from a re-analysis of the deposited data

How the results depend on the processing

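Bmp2, Grem1, Nog, Chrdl1, Id3 and Id4 kept their direction and call under all 13 alternatives run. Scaling to epithelial genes called 12994 genes (385 higher, 12609 lower) and 45 further pathway genes (1 higher, 44 lower), and 9 of the 10 genes (1 higher, 8 lower). Bmp4 (-1.57, adjusted p = 0.00636) and Id2 (-0.90, adjusted p = 0.0192) were then called lower, and directions turned, without a call, at -0.39 for Id1, -0.35 for Smad7, -0.41 for Fbxl6, -0.36 for Nsmce1 and -0.32 for Hoxd9. Which scaling is nearer the cells was not tested. Id1 was called, making 2 of the 10 genes higher, without the count filter (0.68), with the replicate block (0.64), with DESeq2 (0.67) and without overexpression replicate 1. The cause was not tested. With 1 library left out, 6 to 8 of the 10 genes were called (1 to 2 higher, 5 to 6 lower), with Bmp7 at -1.10 to -0.76, Id1 at 0.43 to 0.83 and Id2 at -0.041 (without overexpression replicate 1) to 0.29. Further pathway genes called higher numbered 3 to 7 (7 without overexpression replicate 2), and all genes called higher 1446 to 2599 (1446 without knockout replicate 2, 1610 without knockout replicate 3). Deviations of same-numbered libraries correlated at 0.0508, 0.0223 and -0.0399, which shows no pairing over all genes but cannot exclude a shared batch. The labels state no pairing. The replicate block called 5593 genes and changed no call of the 10 genes other than Id1. Depth limits Chrdl1 and Bmp5 with overexpression, at 0 to 4 counts a library.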

Other observations

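Sostdc1, which encodes a secreted antagonist of BMP and Wnt ligands, was picked after its values were seen because its knockout libraries differed widely. It stood at 13.1, 35.2 and 1.48 CPM in knockout replicates 1, 2 and 3 and at 32.1, 44.2 and 43.4 CPM in overexpression replicates 1, 2 and 3. The log2 fold change was 1.27 with a 95% interval from -0.52 to 3.06 (edgeR, adjusted p = 0.252). The mean of the knockout group, 16.6 CPM, was 7.31 CPM when its replicate 2 was left out, and the log2 fold change was then 2.46 (adjusted p = 0.0537). The log2 fold change was 0.73 when its replicate 3 was left out, 1.92 with the replicate block and 0.33 under the epithelial scaling. In the alternatives its adjusted p lay between 0.026 and 0.658. Twsg1, a BMP-binding modulator, and Bmp1, a protease that cleaves chordin rather than a BMP ligand, were among the most abundant transcripts of the pathway list. Bmp1 fell from 828, 970 and 874 CPM to 224, 430 and 275 CPM (edgeR, log2 fold change -1.52, adjusted p = 0.00187). Twsg1 fell from 177, 194 and 161 CPM to 131, 120 and 125 CPM (edgeR, log2 fold change -0.50, adjusted p = 0.0261, between 0.000127 and 0.119 in the alternatives).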
